A study of Mus musculus with 24 samples.

Results

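The 9 genes described here are Gfap, Aqp4, Aldh1l1, Slc1a2, Slc1a3, S100b, Gja1, Gjb6 and Aldoc, all of them genes by which astrocytes are recognized in brain tissue. They were chosen by name, and each was 1 of the 49568 gene symbols counted in mouse hippocampal RNA. All 9 passed the filter on low counts and were among the 18482 genes tested. Levels are given in CPM, the counts of a gene scaled to a library of one common size, with TMM factors.

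RNA came from the whole hippocampus of experimentally naive male mice, 12 weeks old by the labels, on a C57-Bl/6J background. Wild-type (WT) mice and mice homozygous for kinase-dead MSK1 (MSK1 KD) were compared. In MSK1 KD mice, a knock-in point mutation replaces an aspartate by alanine and inactivates the N-terminal kinase domain, in every cell type. The WT and MSK1 KD lines were bred as separate homozygous lines derived from heterozygote crosses, so that the groups were not littermates. From birth on, mice lived either in standard cages (SH) or under enrichment (EE), which meant larger cages with a running wheel, changing toys and more cage mates. The SH groups entered with 6 libraries in each genotype and the EE groups with 5, and each library is named by its code. Codes with a letter occur only in the EE groups. The 2 further EE libraries, 33B and 34B, did not pass the study's quality control and did not enter.

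Astrocytes are the glial cells that surround synapses and blood vessels. They clear glutamate from the synaptic cleft through the transporters GLT-1 and GLAST, take up potassium and move water at their endfeet through aquaporin-4, and are joined to one another by gap junctions of connexin 43 and connexin 30. MSK1 is a nuclear kinase that acts downstream of BDNF and phosphorylates CREB and histone H3, and CREB binds the cAMP response element, the CRE. The comparisons therefore addressed whether enrichment or the loss of MSK1 kinase activity was accompanied by a different level of these glial transcripts.

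The upstream sequences of the 4 members on whose values most of the following results turn are shown here, 2 connexins and 2 glutamate transporters. They are the 250 bases before the gene start given by RefSeq on GRCm38.p6, 5′ to 3′ on the strand of the gene. Gja1 lies at chr10:56377050-56377299 (+ strand), Gjb6 at chr14:57133612-57133861 (− strand), Slc1a2 at chr2:102706188-102706437 (+ strand) and Slc1a3 at chr15:8710808-8711057 (− strand). Capitals mark matches to the motifs searched on both strands.
Gja1: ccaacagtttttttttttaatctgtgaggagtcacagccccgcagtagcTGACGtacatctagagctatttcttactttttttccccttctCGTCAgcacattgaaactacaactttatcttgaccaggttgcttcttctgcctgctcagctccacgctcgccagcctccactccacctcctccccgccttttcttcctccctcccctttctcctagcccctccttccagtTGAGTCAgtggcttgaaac
Gjb6: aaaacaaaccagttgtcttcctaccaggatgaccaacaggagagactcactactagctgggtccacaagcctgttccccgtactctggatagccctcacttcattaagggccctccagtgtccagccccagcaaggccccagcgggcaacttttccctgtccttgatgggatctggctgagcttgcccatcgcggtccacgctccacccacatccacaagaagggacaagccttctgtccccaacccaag
Slc1a2: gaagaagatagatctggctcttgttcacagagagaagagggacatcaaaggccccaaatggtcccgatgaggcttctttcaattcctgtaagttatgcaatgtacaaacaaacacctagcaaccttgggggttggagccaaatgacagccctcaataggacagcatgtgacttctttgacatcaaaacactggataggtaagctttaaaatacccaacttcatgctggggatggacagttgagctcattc
Slc1a3: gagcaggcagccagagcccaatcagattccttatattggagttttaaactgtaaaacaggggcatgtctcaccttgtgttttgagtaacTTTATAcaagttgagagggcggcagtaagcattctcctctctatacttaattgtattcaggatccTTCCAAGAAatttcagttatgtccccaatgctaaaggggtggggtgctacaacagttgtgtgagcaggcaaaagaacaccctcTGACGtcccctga

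The motifs were the TATA box TATAAA, the full CRE TGACGTCA, its core TGACG (which every full CRE contains), the AP-1 motif TGANTCA, the STAT motif TTCNNNGAA and the NFI core TTGGCA, in which N is any base. Gja1 held 2 CRE cores, 1 on each strand, and 1 AP-1 motif, the latter within the last bases before the start. Slc1a3 held 1 CRE core, 1 STAT motif and 1 TATA box on the other strand. Gjb6 and Slc1a2 held none of the 6 motifs, and so did Gfap and Aldh1l1. S100b held 1 NFI core, and the 2 starts of Aldoc held 1 NFI core and 2 STAT motifs, respectively. Among all 32851 promoters of this length, 17.8% held the CRE core, 1.55% the full CRE, 6.75% the AP-1 motif, 7.02% the STAT motif, 12.4% the TATA box and 12.3% the NFI core. A match is a stretch of letters and no measurement of binding. RefSeq promoters were matched for 8 of the 9 members. The RefSeq starts of Slc1a2, Aldh1l1 and Gfap and both of Aldoc lie inside the spans that GENCODE gives these genes.

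The counts on genes were between 8911999 (library 9) and 56752074 (library 35A). In CPM scaled with TMM factors over the genes tested, the 9 members together made up 0.430% to 0.597% of the scaled library size (median 0.537%). The smallest count of any member was 343, of Gjb6 in library 9. The summed level of the members was between 4314 and 5983 CPM, a wider range in proportion than that of neuronal (9386 to 11239), microglial, endothelial or oligodendrocyte precursor genes. It was also wider than that of 32 other astrocyte genes (10365 to 12293), but narrower than that of oligodendrocyte genes (4578 to 6827). Choroid plexus varied most among the cell types and regions examined. The summed level of its 15 genes was between 230 and 8424 CPM, all 15 were above 0 in every library, and its median was 6032 in WT EE and 3472 in KD EE against 292 and 372 in the SH groups. Thalamic markers stood at 571 CPM in library 12 (others up to 244), striatal markers at 239 CPM in library 14 (others up to 137) and blood genes at 128 CPM in library 17 (others up to 86.6). A point mutation cannot be seen in gene counts, so that they do not check the genotype. Fewer astrocytes and less RNA per astrocyte cannot be told apart in RNA of whole tissue.

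**Figure D1:**
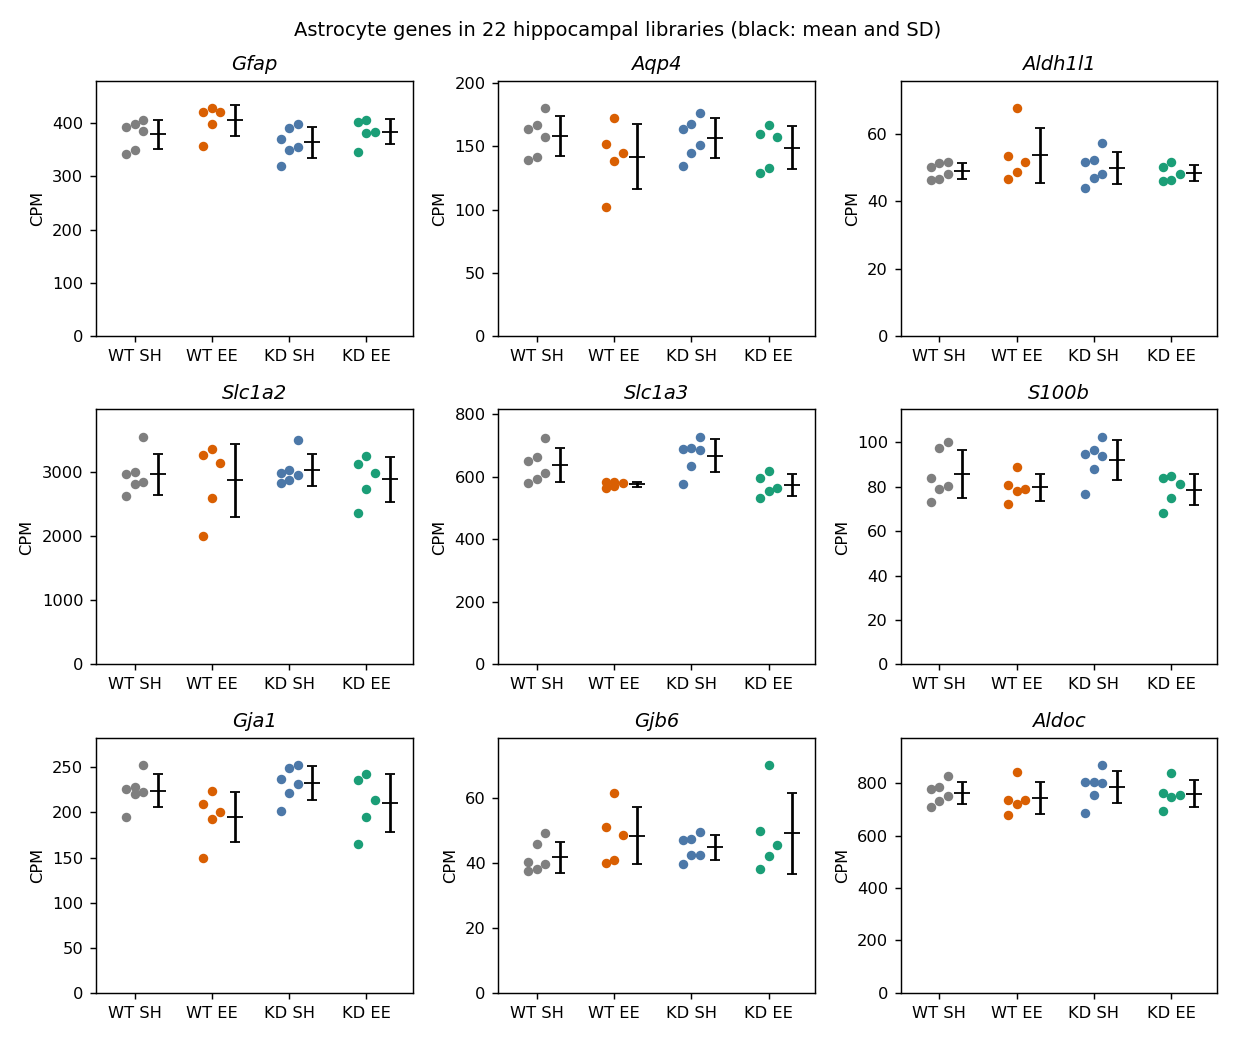
CPM (y axes, from 0) of the 9 astrocyte genes in the 22 libraries, by group (x axes). Points are libraries, and the black bars give the mean and SD of each group. In every panel the points of the 4 groups overlap, the mean of Slc1a3 is lower in both EE groups, and library 17 is the lowest WT EE point of Aqp4, Slc1a2 and Gja1 and the highest of Aldh1l1.

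To compare levels between genes, CPM were divided by the length of the merged exons (RPKM). Per length, Aldoc and Slc1a2 were the most abundant at 234 ± 16.2 and 224 ± 27.1 RPKM (SD, n = 22), and Aldoc was the higher in 15 of 22 libraries, so that their order did not hold beyond the spread. Gfap followed at 90.6 ± 6.99 and Slc1a3 at 72.3 ± 6.77, with Gfap higher in 19 of 22 libraries. S100b was at 57.0 ± 6.48, Aqp4 at 24.4 ± 2.96 and Gja1 at 21.1 ± 2.59, with S100b above Aqp4 and Aqp4 above Gja1 in all 22 libraries. Gjb6 was at 17.1 ± 2.96, below Gja1 in 18 of 22 libraries. Aldh1l1 had the lowest mean at 11.1 ± 1.10 and lay below Gjb6 in all 22 libraries. In library 17, however, Gja1 was lower than Aldh1l1. Slc1a2 alone made up 46.5% to 60.3% of the counts of the 9.

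None of the 9 members passed the threshold (adjusted p of 0.05 or less and a 1.3-fold change, 0.38 on the log2 scale, in edgeR's quasi-likelihood test) in any of 7 contrasts. Over all 18482 genes, the calls were 0% for EE against SH in WT, in KD, for WT against KD in SH and in EE, for the interaction of genotype and housing and for the genotypes over both housings. For EE against SH over both genotypes 0.146% of all genes were called, so that 0 of 9 was near the background. Without a call, 2 members in WT, 2 in KD and 3 over both genotypes had an unadjusted p below 0.05 for EE against SH, while 8.65%, 9.63% and 16.1% of all genes did. In this fit over the 22 libraries, the 95% intervals bound how far the members could have moved. For EE against SH over both genotypes and for all 3 contrasts between genotypes, the intervals of all 9 members lay within 1.3-fold in either direction. For EE against SH, 7 of 9 did in WT (exceptions Gja1 and Gjb6) and 7 of 9 in KD (exceptions S100b and Gjb6), and 6 of 9 did for the interaction. These bounds depended on the libraries used. Without the lettered libraries, the intervals for EE against SH over both genotypes reached −0.46 for Gja1, −0.43 for Aqp4 and −0.42 for Slc1a2.

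In the 17 libraries that the study kept (without 2, 9, 12, 31B and 35A), which were analyzed as an alternative, many more genes were called. There, 3.55% of 18701 genes were called for EE against SH in WT, 1.74% in KD and 3.85% over both genotypes, and 0.00535% for WT against KD in EE. Again 0 of 9 members was called in any contrast. The lowest adjusted p among them was 0.0501, of Slc1a3 over both genotypes, and its fold was below the threshold.

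**Figure D2:**
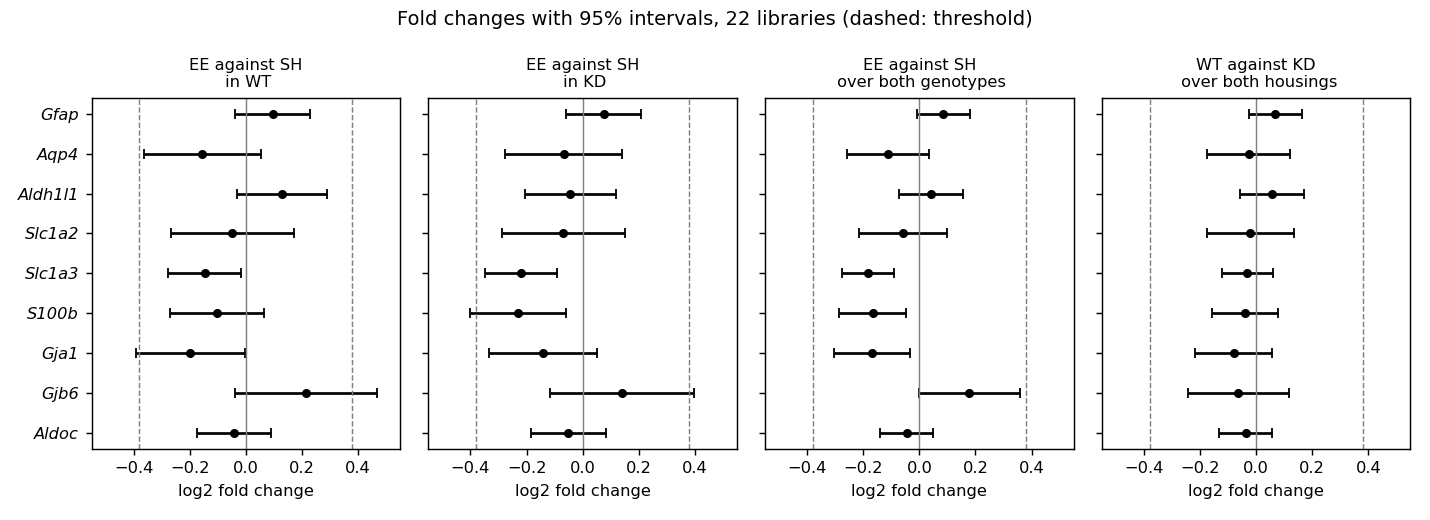
Log2 fold changes (x axes, positive where the group named first is higher) of the 9 members in 4 contrasts, from the fit over 22 libraries. Points are estimates, bars 95% intervals, and dashed lines the 1.3-fold threshold of 0.38. No point reaches a dashed line, and Slc1a3 lies left of 0 with its whole interval in all 3 contrasts of housing.

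Slc1a3 encodes GLAST, a glutamate transporter of astrocytes and radial glia (chromosome 15, 8634124 to 8710764, − strand). In WT it ranged from 579 to 726 CPM in SH (median 632), and EE libraries held 563 (16), 570 (31B), 581 (17), 583 (35A) and 583 (33A). In KD it ranged from 578 to 728 CPM in SH (median 688), and EE libraries held 532 (8), 556 (9), 565 (32A), 597 (36A) and 620 (7). All 5 EE libraries lay below the SH median of their genotype in both genotypes, and 2 in WT and 3 in KD lay below every SH library, but the groups overlapped. The log2 fold change for EE against SH was −0.15 ± 0.06 (SE) in WT and −0.22 ± 0.06 in KD, and the interaction was 0.07 ± 0.09. Over both genotypes it was −0.18 ± 0.04, or −11.9%, with an adjusted p of 0.0568 in edgeR. The size stayed between −0.20 and −0.17 in every alternative, while the adjusted p moved between 0.00771 (DESeq2) and 0.155 (no lettered libraries), on either side of 0.05. The fold was below 1.3 throughout.

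Slc1a2 encodes GLT-1, the main glutamate transporter of the forebrain (chromosome 2, 102658659 to 102790784, + strand). It ranged from 2616 to 3543 CPM in WT SH (median 2902), and WT EE libraries held 1999 (17), 2584 (16), 3133 (31B), 3254 (33A) and 3349 (35A). In KD SH it ranged from 2823 to 3498 CPM (median 2965), and KD EE libraries held 2358 (9), 2728 (8), 2984 (7), 3113 (36A) and 3239 (32A). The EE groups thus reached both lower and nearly as high as the SH groups. The log2 fold change was −0.05 ± 0.11 in WT, −0.07 ± 0.11 in KD and −0.06 ± 0.08 over both. In WT its sign turned on library 17, without which it was 0.05, and without the lettered libraries, which leaves 16 and 17 as the WT EE group, it was −0.36. Slc1a2 shares 189 bp of exon with Gm13872 on the other strand, which the unstranded counting could not separate.

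The ratio of Slc1a2 to Slc1a3 counts within a library, which does not depend on the scaling, was between 4.16 and 5.05 in KD SH and held 4.81 (7), 5.13 (8), 4.24 (9), 5.73 (32A) and 5.22 (36A) in KD EE. In WT it was 4.50 to 4.88 in SH and held 4.59 (16), 3.44 (17), 5.50 (31B), 5.58 (33A) and 5.75 (35A) in EE. Thus 3 WT EE libraries lay above every SH library and 1 below. Every lettered library that entered, in WT (31B, 33A, 35A) and in KD (32A, 36A), lay above every SH library of either genotype. Of the unlettered EE libraries, only 8 did. The part of the library code in this ratio was not tested. The difference of EE from SH did not pass in WT (log2 0.08, exact permutation p = 0.6, two-sided) nor in KD (0.14, p = 0.123).

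The neuronal glutamate transporter Slc1a1 showed a log2 fold change of −0.15 ± 0.05 for EE against SH over both genotypes (adjusted p of edgeR 0.121). Over the 11 genes of glutamate transport and the glutamine cycle, 0 were called over the 22 libraries in WT, KD or both. Their median fold changes were −0.02, 0.03 and −0.02 against 0.01, 0.00 and 0.00 over all genes. In the 17 libraries, 2 of 11 were called higher in EE in WT: Slc38a3, a glutamine transporter (0.73 ± 0.08, adjusted p of edgeR 3.46e-06), and Slc1a5, a neutral amino acid transporter (1.02 ± 0.17, 0.000582). Both were also called over both genotypes. Over the 22 libraries their fold changes in WT were 0.42 and 0.67 with adjusted p of edgeR of 0.409 and 0.390. The medians of the summed choroid plexus level given above were also higher in EE, and the part of these cells in the values of both genes was not tested.

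Gja1 encodes connexin 43 (chromosome 10, 56377330 to 56402513, + strand). It ranged from 195 to 252 CPM in WT SH (median 224), and WT EE libraries held 150 (17), 193 (16), 201 (31B), 209 (33A) and 224 (35A). KD SH libraries ranged from 202 to 252 CPM (median 234), and KD EE libraries held 165 (9), 195 (8), 214 (32A), 235 (7) and 243 (36A). All 5 WT EE libraries and 3 of 5 KD EE libraries lay below the SH median. Its log2 fold change was −0.20 ± 0.09 in WT, −0.14 ± 0.09 in KD and −0.17 ± 0.07 over both (adjusted p of edgeR 0.203). Without library 17 it was −0.12 in WT, and without the lettered libraries −0.38 in WT and −0.30 over both.

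Gjb6 encodes connexin 30 (chromosome 14, 57123303 to 57133611, − strand). It ranged from 37.5 to 49.2 CPM in WT SH (median 40.1), and WT EE libraries held 40.2 (33A), 40.8 (31B), 48.7 (17), 51.1 (16) and 61.8 (35A). In MSK1 KD mice it ranged in SH from 39.8 to 49.6 CPM (median 44.8), and KD EE libraries held 38.2 (9), 42.2 (8), 45.5 (32A), 50 (7) and 70.2 (36A). The highest values of either genotype were those of 35A and 36A. For EE against SH, the log2 fold change was 0.22 ± 0.12 in WT, 0.14 ± 0.12 in KD and 0.18 ± 0.09 over both (adjusted p of edgeR 0.316), opposite in sign to that of Gja1. Without library 36A it was −0.02 in KD and 0.10 over both, and without 35A it was 0.11 in WT.

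The ratio of Gja1 to Gjb6 counts was lower in EE than in SH in KD mice. In KD SH libraries it was 4.93 to 5.86, and in KD EE it was 4.70 (7), 4.62 (8), 4.31 (9), 4.70 (32A) and 3.46 (36A), so that every EE library lay below every SH library. The log2 difference was −0.26 (exact permutation test, two-sided, p = 0.00216, the smallest that 6 against 5 libraries allow; 0.026 after adjustment over the 12 ratio tests). It no longer passed in the 17 libraries (−0.27, adjusted p of the exact permutation test 0.0952), without the lettered libraries (−0.19, 0.143) or when any 1 KD library was left out (−0.29 to −0.18). In each of these cases the unadjusted p was again the smallest that the fewer libraries allow, so that missing the threshold there does not show a weaker difference. In WT SH the ratio was 4.58 to 6.33, and in WT EE it was 3.78 (16), 3.08 (17), 4.91 (31B), 5.20 (33A) and 3.62 (35A). There 3 of 5 EE libraries lay below every SH library, and the log2 difference was −0.41 (exact permutation p = 0.0303, adjusted 0.182). Whether the genotypes differed in this was not tested, and within a housing they did not differ beyond their spread (WT against KD, exact permutation p = 0.543 in SH and 0.540 in EE). It was smallest, −0.18, without library 36A, in which the choroid plexus genes were at their highest (8424 CPM), and library 35A, with nearly as low a ratio as 36A, had 235 CPM of them. The part of other cells in the ratio was not tested further. An unequal change of 2 genes is all that a ratio shows.

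**Figure D3:**
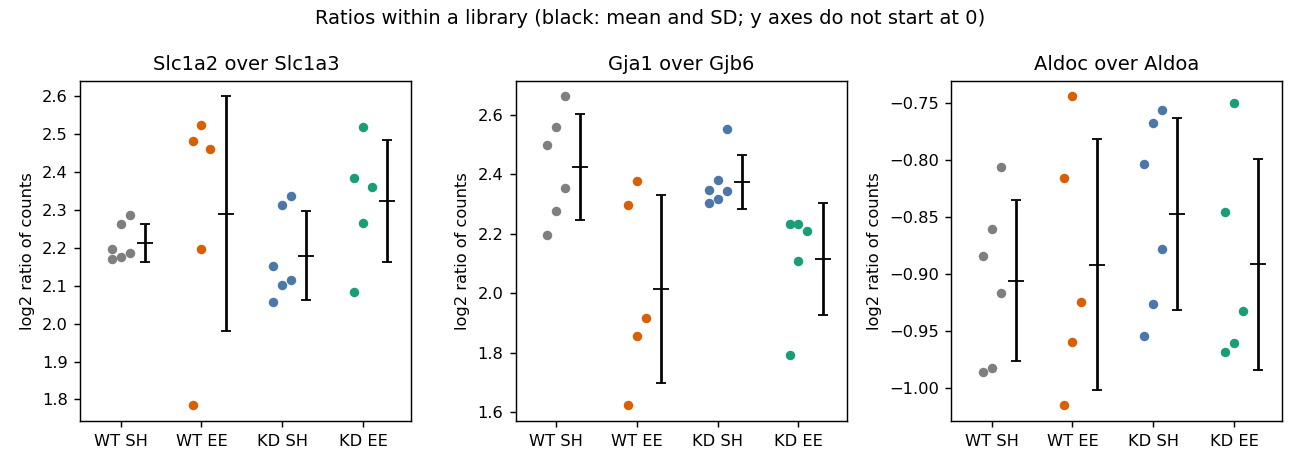
Log2 ratios of counts within a library (y axes, which do not start at 0) for Slc1a2 over Slc1a3, Gja1 over Gjb6 and Aldoc over Aldoa, by group (x axes). Points are libraries, and black bars the mean and SD. The Gja1 over Gjb6 ratios of KD EE lie below all of KD SH, and 3 of the 5 of WT EE lie below all of WT SH.

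Of 10 connexins and pannexins, 0 were called over the 22 libraries, and their median for EE against SH over both genotypes was 0.02 (6 above 0). Gjd2, the neuronal connexin 36, had a log2 fold change of −0.29 ± 0.08 over both genotypes (adjusted p of edgeR 0.0843), and Gja5, a connexin of arteries, one of 0.58 ± 0.23 (0.214). In the 17 libraries, Gjb2 (connexin 26, known from the meninges) was called in WT (0.92 ± 0.23, adjusted p of edgeR 0.0238) and over both genotypes, against 0.57 (0.554) in WT over the 22.

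Aqp4 encodes the water channel of astrocyte endfeet (chromosome 18, 15389496 to 15410982, − strand). It ranged from 140 to 180 CPM in WT SH (median 161), and WT EE libraries held 102 (17), 138 (16), 145 (33A), 152 (31B) and 172 (35A). Among KD mice in SH it ranged from 134 to 176 CPM (median 157), and KD EE libraries held 129 (8), 133 (9), 157 (36A), 160 (32A) and 167 (7). Library 17 stood lowest of all 22. Enrichment went with a log2 fold change of −0.16 ± 0.10 in WT, −0.07 ± 0.10 in KD and −0.11 ± 0.07 over both (adjusted p of edgeR 0.463), and −0.06 in WT without library 17. Without the lettered libraries it was −0.39 in WT, past the fold threshold but not called (adjusted p of edgeR 0.123), and −0.26 over both. Of the 11 aquaporins and genes of the complex that anchors Aqp4, 0 were called over the 22 libraries, with a median of −0.02 over both genotypes (4 above 0). Aqp1, which marks choroid plexus, was at 3.34 ± 4.83 CPM in WT SH (SD, n = 6) and 19.6 ± 17.9 in WT EE (n = 5), and was called in WT (4.53 ± 0.57) and KD (4.35 ± 0.55) in the 17 libraries. Hepacam, an adhesion protein of endfeet, had −0.11 ± 0.03 over both genotypes (adjusted p of edgeR 0.0778).

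Gfap encodes the intermediate filament by which reactive astrocytes are recognized (chromosome 11, 102887336 to 102900912, − strand). It ranged from 341 to 407 CPM in WT SH (median 389), and WT EE libraries held 357 (33A), 398 (31B), 421 (17), 422 (35A) and 428 (16). In KD SH it ranged from 319 to 399 CPM (median 363), and KD EE libraries held 346 (8), 381 (9), 384 (36A), 402 (32A) and 406 (7). In WT 3 and in KD 2 EE libraries lay above every SH library. The fold change (log2, EE against SH) was 0.10 ± 0.06 in WT, 0.08 ± 0.06 in KD and 0.09 ± 0.05 over both (adjusted p of edgeR 0.368), with an upper bound of 0.18 over both.

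Of 27 genes known from reactive astrocytes, 0 were called over the 22 libraries, and their median log2 fold change for EE against SH was 0.21 in WT, 0.12 in KD and 0.13 over both, against 0.01, 0.00 and 0.00 over all genes. The lowest adjusted p of edgeR over both genotypes were 0.0514 for Lcn2, a secreted lipocalin (2.79 ± 0.64), and 0.0519 for Hspb1, a small heat shock protein (0.77 ± 0.18). Lcn2 was at 0.0546 ± 0.0579 CPM in WT SH and 0.732 ± 1.15 in WT EE. The SH level is within the range of the floor of 3 counts (0.0529 to 0.337 CPM), so that its fold change depends on the prior count that edgeR's fit uses. In the 17 libraries, Fbln5, Serping1, Steap4 and Cp were called higher in EE in WT (0.87, 0.86, 1.89 and 0.61), 0 were called in KD, and these 4 and Hspb1 were called over both genotypes. The summed choroid plexus level differed between the housings in the same direction (medians above), and its part in these genes was not tested.

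Aldh1l1 encodes a cytosolic enzyme of folate metabolism used as a general astrocyte marker (chromosome 6, 90486427 to 90600203, + strand). It ranged from 46.2 to 51.6 CPM in WT SH (median 49.2), and WT EE libraries held 46.6 (31B), 48.8 (16), 51.8 (35A), 53.4 (33A) and 67.6 (17). KD SH libraries ranged from 43.8 to 57.4 CPM (median 49.9), and KD EE libraries held 46.1 (7), 46.4 (9), 48.0 (32A), 50.3 (8) and 51.6 (36A). Library 17 alone stood apart. On the log2 scale, EE differed from SH by 0.13 ± 0.08 in WT, −0.04 ± 0.08 in KD and 0.04 ± 0.06 over both, and 0.03 in WT without library 17. Its exons share 604 bp with Gm15756 (other strand) and Gm45901 (same strand).

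S100b encodes a calcium-binding protein made by astrocytes and also by oligodendrocytes (chromosome 10, 76253853 to 76261159, + strand). It ranged from 73.3 to 100 CPM in WT SH (median 82.2), and WT EE libraries held 72.3 (35A), 78.2 (31B), 78.9 (16), 80.9 (33A) and 88.9 (17). In MSK1 KD mice it ranged in SH from 76.7 to 103 CPM (median 94.4), and KD EE libraries held 68.4 (32A), 75.0 (36A), 81.5 (8), 83.8 (9) and 84.8 (7). Of the EE libraries 4 of 5 in WT and 5 of 5 in KD lay below the SH median. The housing contrast gave log2 values of −0.10 ± 0.08 in WT, −0.23 ± 0.08 in KD and −0.17 ± 0.06 over both (adjusted p of edgeR 0.144). The summed level of 8 oligodendrocyte genes, all above 0 in every library, was 5156 to 6827 CPM in WT SH and 4769 to 5259 in WT EE, and 5022 to 6363 in KD SH and 4578 to 5568 in KD EE. With the oligodendrocyte score as a covariate, the fold change of S100b over both genotypes was −0.03, and that of Slc1a3 −0.17.

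Aldoc encodes aldolase C, the glycolytic isozyme of astrocytes and Purkinje cells (chromosome 11, 78322968 to 78327781, + strand). It ranged from 710 to 829 CPM in WT SH (median 764), and WT EE libraries held 677 (33A), 721 (31B), 734 (16), 737 (35A) and 842 (17). Among KD mice in SH it ranged from 688 to 868 CPM (median 804), and KD EE libraries held 692 (32A), 748 (36A), 756 (8), 764 (9) and 838 (7). The groups overlapped throughout. EE against SH gave −0.04 ± 0.06 in WT, −0.05 ± 0.06 in KD and −0.05 ± 0.05 over both. The ratio of Aldoc to Aldoa, the ubiquitous isozyme, was between 0.49 and 0.60 in the 22 libraries, and none of its 4 comparisons passed (lowest exact permutation p = 0.212). Of 11 aldolases, Aldh1 and S100 relatives, 0 were called over the 22 libraries, with a median of −0.05 over both genotypes (3 above 0). Aldh1a2, a retinoic acid enzyme known from the meninges, was called in WT in the 17 libraries (1.2 ± 0.27, adjusted p of edgeR 0.00897).

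Between WT and KD, no member had an unadjusted p of edgeR below 0.05 over the 22 libraries. In the 17 libraries 3 of 9 did in EE and 1 over both housings, as did 1196 and 1140 of all 18701 genes. None of the members was called. Gja1 was there at −0.27 and Aqp4 at −0.25 for WT against KD in EE. The WT EE libraries there include library 17, the lowest of all 22 in both genes. When that library was left out of the 17, 0 of 9 members had an unadjusted p of edgeR below 0.05 in this contrast. The values that follow are those of the 22 libraries. In SH the fold changes of WT against KD were between −0.10 (S100b) and 0.06 (Gfap), and in EE between −0.11 (Gja1) and 0.14 (Aldh1l1). The bounds of the 95% intervals reached from −0.34 to 0.21 in SH and from −0.31 to 0.31 in EE. For the interaction of genotype and housing, the fold changes were between −0.09 (Aqp4) and 0.17 (Aldh1l1).

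Of 32 other astrocyte genes, 0 were called over the 22 libraries in WT, KD or both. For EE against SH over both genotypes, 7 of them had a fold change above 0, with a median of −0.06, beside −0.06 for the 9 members and 0.00 for all genes. Those with the lowest p were Plpp3, a lipid phosphatase of the membrane (−0.15 ± 0.04, adjusted p of edgeR 0.0633), and Ttyh1, a membrane protein of neural stem cells and astrocytes (−0.12 ± 0.03, 0.0759). Slc7a10, the D-serine and glycine transporter Asc-1, went the other way: it was at 26.9 ± 3.34 CPM in WT SH (SD, n = 6), 33.1 ± 7.16 in WT EE (n = 5), 26.1 ± 4.13 in KD SH and 32.7 ± 5.22 in KD EE. In the 17 libraries it was called higher in EE in WT (0.57 ± 0.10, adjusted p of edgeR 0.000777) and KD (0.45 ± 0.09, 0.0081). Over the 22 libraries it did not pass (0.32 ± 0.09 over both genotypes, adjusted p of edgeR 0.0907).

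Of 8 genes of radial glia and neural stem cells, 0 were called over the 22 libraries in WT, KD or both, and for EE against SH over both genotypes 3 had a fold change above 0, with a median of −0.08. The lowest p were those of Sox2 and Hes5. Sox2, a transcription factor of stem cells that astrocytes keep, was at 44.3 ± 2.33 CPM in WT SH, 33.5 ± 3.09 in WT EE, 41.5 ± 1.86 in KD SH and 36.2 ± 6.62 in KD EE (SD). Over both genotypes its log2 fold change was −0.30 ± 0.06 with an adjusted p of edgeR of 0.0406, below the fold threshold and so not called. Hes5, a target of Notch signaling, was at 3.87 ± 1.06 CPM in WT SH and 2.52 ± 0.47 in WT EE, and its fold change was −0.53 ± 0.12 over both genotypes (0.0514).

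The members were then compared between libraries of the same group. Within groups, the spread (SD of log2 CPM) was 0.22 for Gjb6, 0.20 for Slc1a2, 0.19 for Aqp4 and 0.17 for Gja1, which is more than in 94.6%, 92.3%, 92.2% and 93.4% of genes of like level. For the other 5 members this share was between 40.5% (Slc1a3) and 73.6% (S100b).

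Over the 36 pairs of members, with group means removed, 4 passed after adjustment by Pearson's r (permutation test within groups, n = 22, 100000 resamples). They were Aqp4 with Gja1 (Pearson r = 0.87, Spearman rho = 0.86, permutation p = 1e-05 and 2e-05, adjusted 0.00018 and 0.00036), Slc1a2 with Gja1 (0.87 and 0.86, both permutation p = 1e-05, the smallest they can give, adjusted 0.00018 and 0.00036), Aqp4 with Slc1a2 (0.84 and 0.81, permutation p = 8e-05 and 7e-05, adjusted 0.00096 and 0.00084) and Slc1a3 with Gja1 (0.57 and 0.65, permutation p = 0.00082 and 0.00063, adjusted 0.00738 and 0.00454). Without the 2 libraries farthest from the median of the first gene, r was 0.83, 0.76, 0.76 and 0.57. Slc1a2 with Slc1a3 passed by rank alone (r = 0.43, rho = 0.63, permutation p = 0.00853 and 0.00063, adjusted 0.0521 and 0.00454; r = 0.59). Gfap passed with no other member, and its highest r was with Aldoc (r = 0.58, rho = 0.44, permutation p = 0.012 and 0.0659, adjusted 0.0618 and 0.237; r = 0.41 without the farthest 2). The lowest r were negative, of Slc1a2 with Aldoc (r = −0.55, rho = −0.40, permutation p = 0.0174 and 0.0843, adjusted 0.0784 and 0.253; r = −0.43) and of Aqp4 with Aldh1l1 (r = −0.55, rho = −0.37, permutation p = 0.055 and 0.127, adjusted 0.195 and 0.305; r = −0.24). Thus the transcripts of the endfoot channel, GLT-1 and connexin 43 were high or low in the same libraries. Whether the correlations of other pairs differed from these was not tested.

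Long and short transcripts differed between libraries, which bears on these pairs. A length score was added after the data were seen. It is the median log2 deviation of genes with at least 6000 bp of exon less that of genes with at most 2000 bp, and was between −0.182 (library 17) and 0.151 (library 35A). Aqp4, Slc1a2 and Gja1 have 6233, 13133 and 10257 bp of exon. Among the 9 members, Slc1a2 rose with the score (r = 0.74, rho = 0.71, permutation p = 0.00052 and 0.00134, adjusted 0.00256 and 0.00603; r = 0.71 without the farthest 2) and Aldoc fell with it (r = −0.73, rho = −0.75, permutation p = 0.00057 and 0.00014, adjusted 0.00256 and 0.00126; r = −0.60). Aqp4 had r = 0.58 and rho = 0.54 (permutation p = 0.0215 and 0.0213, adjusted 0.0646 and 0.0638; r = 0.35). With the score removed, the r of the 3 leading pairs were 0.84, 0.89 and 0.76, and these 3 were the pairs that passed. Slc1a3 with Gja1 then had r = 0.55 (permutation p = 0.0124, adjusted 0.0654). The negative r of Slc1a2 with Aldoc became −0.02, and that of Aqp4 with Aldh1l1 was −0.43.

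**Figure D4:**
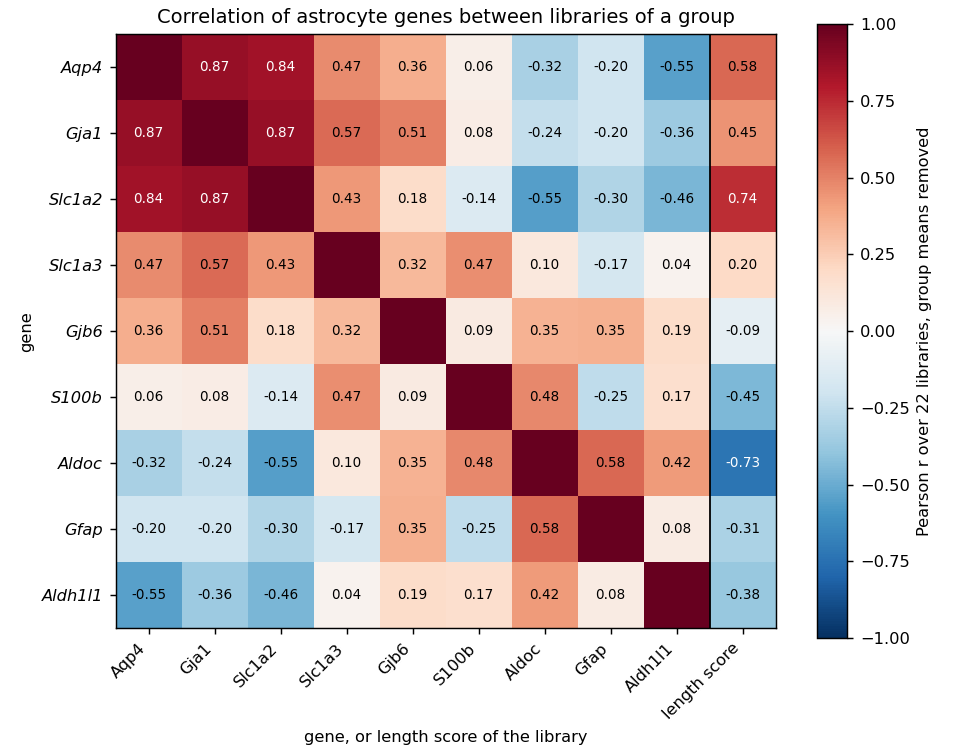
Pearson r over 22 libraries, with group means removed, between the 9 members (rows and columns), and between each member and the length score of the library (last column). Red is positive and blue negative. Aqp4, Gja1 and Slc1a2 form a block of 0.84 to 0.87, and Aldoc and Slc1a2 stand at −0.73 and 0.74 with the length score.

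**Figure D5:**
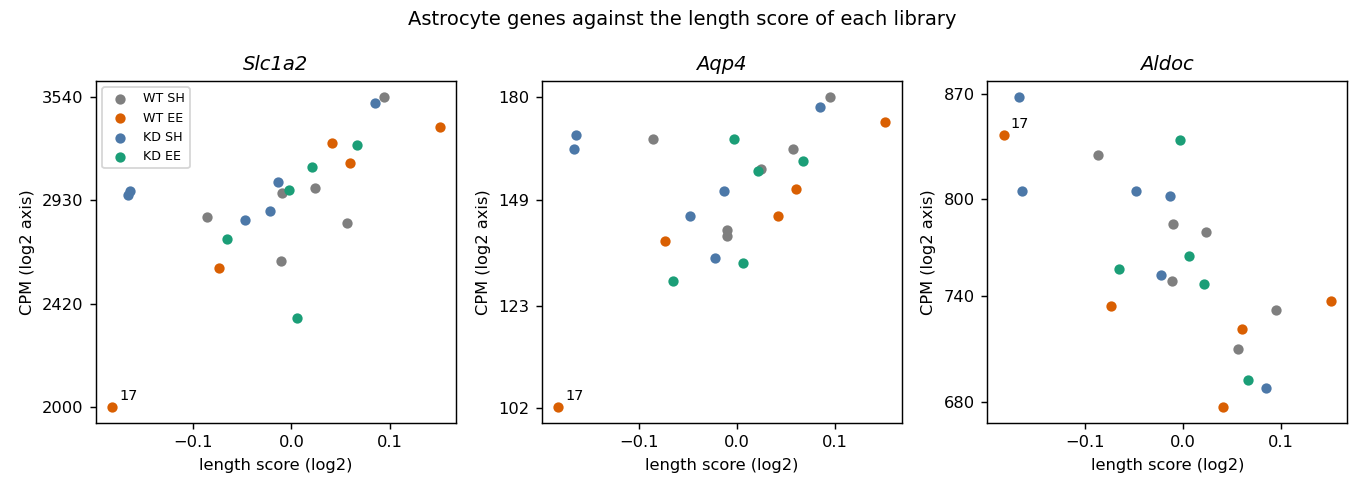
CPM (y axes, log2 scale) of Slc1a2, Aqp4 and Aldoc against the length score of the library (x axes, log2 units), with libraries colored by group. Slc1a2 is higher and Aldoc lower where the score is higher, and library 17 has the lowest score and the lowest Slc1a2 and Aqp4.

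Of 63 pairs of a member with the score of another cell type or with the total counts, 1 passed: S100b with the oligodendrocyte score (r = 0.71, rho = 0.66, permutation p = 0.00037 and 0.0019, adjusted 0.0233 and 0.12; r = 0.61 without the farthest 2). No pair with choroid plexus passed. Neither did any pair with thalamus, striatum, ependyma, neurons or the total counts.

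By the mean z score of the 9 members over the 22 libraries, the genes most like them were Ddah1 (r = 0.78), Snx6 (0.78), Tmem100 (0.77), Elovl5 (0.77) and Serpine2 (0.77), given as a description with no test. Ddah1 degrades asymmetric dimethylarginine, Elovl5 elongates fatty acids and Serpine2 is a protease inhibitor of glia. None of these named genes was in the list of other astrocyte genes. In that list Glul, the glutamine synthetase of astrocytes, came highest (0.76), at rank 8 among the genes tested outside the members. The libraries share their scaling, so that these values are not independent of it.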

How the data were processed

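Whole-hippocampus polyA RNA was sequenced as 24 paired-end libraries. Per the labels and the methods, the authors trimmed the reads and used STAR 2.5 on GRCm38 for alignment. Unique alignments were summed by gene symbol in HTSeq, ignoring strand. The deposited files hold raw counts per library, not normalized, with 49568 symbols each. A further table by the authors, of counts divided by size factors for 17 libraries, was not used. None of 276 pairs of libraries was identical. Reads carry no molecular identifiers, so that floors and counting error cover counting only. Whether replicates were separate mice is not stated by the labels library by library, and p-values measure the spread between these libraries.

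Analysis used R 4.3.3, edgeR 4.0.16, DESeq2 1.42.0 and Python 3.11.15 with pandas 2.3.3, scipy 1.17.1 and matplotlib 3.10.9. Over 22 libraries, genes were filtered by filterByExpr, scaled by TMM, and fitted with 4 group means in 1 quasi-likelihood model; p were adjusted by Benjamini-Hochberg over 18482 genes. A call needed an adjusted p at or under 0.05 and a change of at least 0.38 (log2). The script was tested on simulated data. Correlations, scores and the spread within groups used log2 CPM with a prior count of 2. The CPM given are not logged and hold no prior count. Ratios were compared by exact permutation over all splits. Gene positions are those of GENCODE M21, and upstream sequences those of RefSeq (GRCm38.p6).

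The members and lists were chosen with earlier results of these data known. Named were the members, in each related list the called genes (at most 6) and the 2 with the lowest p for EE against SH over both genotypes, the paralogs Aldoa and Slc1a1, and the 5 genes most like the members. Glul, outside this rule, was added after its value was seen. Alternatives were the 17 and the 24 libraries, DESeq2, other scalings, filters and thresholds, only the groups compared, covariates, and each library left out.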

Additional observations from a re-analysis of the deposited data

Results flagged for a closer look

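Of 48 groups of 5 or 6 libraries examined for a library far from the others, 3 were flagged, where chance gives about 1 in 20. Slc1a2 in KD SH library 5 was at 3498 CPM, while the other KD SH libraries were at 2823 to 3030. The log2 ratio of Gja1 over Gjb6 was 2.552 in the same library (others 2.30 to 2.38), and 1.793 in KD EE library 36A (others 2.11 to 2.23).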

How the results depend on the processing

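Over 38 alternatives (3 of them, with the length score as a covariate or without library 17, were chosen after seeing the data), 0 of 2367 values of the 63 member fold changes was called, and 106 had another sign, none of them of a fold change larger than 0.14 in size. No paired analysis was possible because the groups share no library number. The log2 ratio of Gja1 over Gjb6 for EE against SH in KD, −0.26 and past the threshold, no longer passed in the 17 libraries (−0.27, adjusted p of the exact permutation test 0.0952) and without lettered libraries (−0.19, 0.143), and was between −0.288 and −0.178 with each library left out, where it did not pass whenever a KD library was missing. In all of these cases p was the smallest that the fewer libraries allow, so that the loss comes from their number. The count of pairs of a member and another score that passed was 1, but 0 in the 17 libraries and 2 with group means not removed. Counts of all genes called varied: for EE against SH over both genotypes, 27 became 720 in the 17 libraries and 2 to 287 with each library left out (287 without WT EE library 31B), 0 in WT became 664 and 0 in KD became 325 in the 17 libraries, and the cause was not tested. The CPM of 34B rest on 0 to 63 counts a member, and its floor was 182 CPM.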

Other observations

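The library labelled 33B (WT EE), which did not pass quality control, held 337 CPM of Gfap, 3360 of Slc1a2, 524 of Slc1a3, 198 of Gja1 and 37.0 of Gjb6, scaled together with all 24 libraries. In library 34B (KD EE), Aqp4, Aldh1l1, S100b and Gjb6 had 0 counts, under a floor of 182 CPM.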
